A study of Mus musculus with 18 samples.

Results

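Whole bladders of mice were compared at 22 and 14 months of age by spatial transcriptomics, in which barcoded spots under a tissue section capture its RNA and each captured molecule is counted as a unique molecular identifier (UMI). The comparison used all 4 spatial sections of a series of 18 samples, 2 sections at each age. The other samples, cell, nuclei and bulk libraries, were not used here. Every section was a frozen section of C57BL/6 bladder, and the labels list 4 males for each section at both ages, with no genotype or treatment. The labels do not say from which animal a section was cut, so p-values measure only the spread between these sections, which may be technical. They name no batch either.

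Of 4488 deposited spots, 4415 had at least 500 UMIs and were kept. The first and second 22-month section kept 1317 and 1038 of them, and the 14-month sections 937 and 1123. Pairs of values below are given in that order of sections. Within each section the top 25% of spots by the share of UMIs from Upk1a, Upk1b, Upk2 and Upk3a is called urothelium-rich, and the top 25% by the share from Myh11, Actg2, Des and Cnn1 muscle-rich. Each set held 1106 spots, with 2 spots in both. A spot covers a small region that can hold several cells of different types. Fewer cells of a type and less RNA per cell therefore cannot be told apart.

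The bladder wall is lined by the urothelium, a layered epithelium with basal cells at its base and large superficial cells that carry plaques of uroplakin proteins at the lumen. Below it lie a connective tissue rich in fibroblasts and vessels and the detrusor, the smooth muscle that empties the bladder. Immediate-early genes encode transcription factors and feedback regulators that are induced within minutes of a stimulus, and heat shock genes encode chaperones that are induced by protein stress. Both are also known to respond to how a tissue is taken and handled, which the labels do not time and whose part in the results was not tested.

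The sections held between 21975462 and 32020077 UMIs in the kept spots. Urothelium-rich spots were deeper than the rest, with a median of 43345 and 30942 UMIs per spot at 22 months and 36950 and 38190 at 14 months, against 12992 and 15171, and 14127 and 11196, in muscle-rich spots. Each section had its own limit, and the urothelium-rich spots of the 22-month sections carried more uroplakin, with a median share of 0.873% and 1.08% of UMIs against 0.756% and 0.652% at 14 months. The muscle-rich spots differed likewise, with a median share of the 4 muscle genes of 2.90% and 4.22% against 2.84% and 1.99%. The tissue markers were present in every section: the superficial urothelium list summed to at least 7338 UMIs per 1000000 UMIs of the section (CPM) and the smooth muscle list to at least 23900 CPM in whole sections, while a list of genes of male accessory glands stayed at or below 0.609 CPM. Section pairs shared 247 to 533 spot barcodes, which come from the common grid, and no barcode had the same counts in any pair.

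Over whole sections, no gene differed between the ages by edgeR's quasi-likelihood test with Benjamini-Hochberg adjustment at 0.05, the threshold for every call here: 0 of 14974 tested genes (0.0%). The lowest adjusted p was 0.0529. At an unadjusted p under 0.05 there were 2481 genes (16.6%), 1312 higher (8.76%) and 1169 lower (7.81%) at 22 months. Of all tested genes 49.9% lay below 0, meaning a lower fitted level at 22 months. DESeq2, run on the same counts, called 417 genes (2.78%). Leaving out 1 section also changed the edgeR count: 256 genes without the first 22-month section, 19 without the second, 1 without the first 14-month section and 18 without the second.

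The lowest adjusted p over whole sections was shared by several genes, among them Elf5, C130026I21Rik, Thbs2, Zfp36 and Plin2. Elf5, encoding an epithelial transcription factor of the ETS family, stood at 13.9 and 13.01 CPM at 22 months and at 2.87 and 2.74 CPM at 14 months, a log2 difference of 2.33 (SE 0.152, adjusted p = 0.0529 by edgeR). Zfp36, which encodes a protein that destabilises AU-rich mRNAs, stood at 46.5 and 35.2 CPM at 22 months and at 127.8 and 120.8 CPM at 14 months, a log2 difference of -1.54 (SE 0.126, adjusted p = 0.0529 by edgeR). Thbs2, encoding the matrix glycoprotein thrombospondin 2, stood at 197.6 and 202.4 CPM against 98.2 and 90.9 CPM, a log2 difference of 1.15 (SE 0.0956, adjusted p = 0.0529 by edgeR). In these 3 genes the sections of the 2 ages did not overlap, as in 50.8% of all tested genes.

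Larger differences that did not pass by edgeR included immediate-early genes, which varied between the 14-month sections. All 27 tested genes of that list lay below 0, against 49.9% of all tested genes, and 10 were lower at an unadjusted p under 0.05, against 7.81%. By edgeR none of them was called, and by DESeq2 11 were called lower, against 2.78% of all tested genes called. Egr1 was at 10.4 and 9.04 CPM at 22 months and at 360.5 and 90.5 CPM at 14 months. Fos was at 32.5 and 10.4 CPM against 375.7 and 171.5 CPM. Angptl4, an inhibitor of lipoprotein lipase, was at 9.96 and 6.66 CPM against 44.8 and 111.6 CPM. The first 14-month section held the highest level of Egr1 and Fos, and the second that of Angptl4. On the other side, Fabp4, a fatty acid binding protein, was at 1485 and 2111 CPM at 22 months against 971.9 and 647.9 CPM. Itga11, an integrin chain that binds collagen, was at 32.5 and 37.5 CPM against 18.3 and 12.7 CPM.

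In urothelium-rich spots, 90 of 13614 tested genes differed between the ages (0.661%). Of these, 46 rose (0.338%) and 44 fell (0.323%) at 22 months relative to 14 months. Counts of called list members in these spots are to be read against these shares. DESeq2 called 219 genes (1.61%). At an unadjusted p under 0.05, 8.32% of the tested genes were higher and 7.84% lower. The sections of the ages did not overlap in 50.9% of all tested genes. On the CPM scale 34.0% lay lower and 16.9% higher without overlap, and on the TMM scale of the test 24.7% lay lower and 24.7% higher. With scaling by library size alone, which shifted the median gene by -0.08 on the log2 scale, 82 genes were called, 28 higher and 54 lower. The median size of a called difference was 1.88-fold for the genes that rose and 1.94-fold for those that fell. All 90 had the same sign in whole sections, which include these spots.

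The call depended on the sections. Without the second 22-month section 4 genes were called, 3 of them among the 90, and without the first 43, of which 22 were among the 90. Without the first or the second 14-month section the counts were 189 and 176, with 74 and 64 of the 90. The genes called in all 4 of these fits were Ier2 and Thbs2; all 90 kept their direction in each of the 15 alternatives in which they were tested. These alternatives refit counts of the same sections that gave the 90 calls, so the kept direction is not separate support. Without robust estimation of the spread, 31 genes were called, and with 1 uroplakin limit shared by all sections, 43.

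The gene with the lowest adjusted p was an immediate-early gene. Ier2, a nuclear regulator induced by growth factors, stood at 94.2 and 86.5 CPM in the urothelium-rich spots of the 22-month sections and at 281.9 and 278.8 CPM at 14 months. The sections of an age lay close together and the ages did not overlap, with a log2 change of -1.55 (SE 0.0927, adjusted p = 0.00102 by edgeR). The AP-1 subunit gene Junb stood at 206.6 and 194.3 CPM against 498.9 and 557.4 CPM, a log2 change of -1.32 (SE 0.106, adjusted p = 0.00281 by edgeR). Jun, encoding its partner in AP-1, stood at 39.1 and 23.4 CPM against 176.3 and 168.7 CPM, a log2 change of -2.38 (SE 0.228, adjusted p = 0.0394 by edgeR). Zfp36 fell too, from 128.6 and 184.1 CPM at 14 months to 51.8 and 40.0 CPM at 22 months (log2 change -1.69, SE 0.197, adjusted p = 0.0454 by edgeR). Fosl2, another AP-1 subunit gene, and Ier5 completed the 6 called members of the list.

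In all, 6 of the 23 immediate-early genes tested in urothelium-rich spots fell and none rose, against 0.323% of all tested genes that fell. All 23 lay below 0, against 50.7% of all tested genes, and their median log2 change was -1.32 against 0.0 for all genes. The list summed to 1274 and 882.5 CPM at 22 months and to 4512 and 2668 CPM at 14 months. The members differed in how the 14-month sections compared. Atf3 was at 2.11 and 0.744 CPM at 22 months, at 267.9 CPM in the first 14-month section and at 5.07 CPM in the second. Fosb, at 1.67 and 1.70 CPM against 191.5 and 7.03 CPM, and Nr4a1, at 8.71 and 6.59 CPM against 448.7 and 20.7 CPM, showed the same split. These genes were high in 1 section only and did not pass (adjusted p between 0.475 and 0.493 by edgeR); DESeq2 called 10 members of the list lower, Fosb among them. Myc, at 26.5 and 16.5 CPM against 24.6 and 24.5 CPM, overlapped between the ages.

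The share of uroplakin in a spot also separated the 14-month sections. When the spots of a section were split into 4 equal bins by their uroplakin share, Ier2 in the first 14-month section was high in each bin, at 264.3, 289.1, 366.1 and 281.9 CPM from the lowest to the highest. In the second 14-month section it was at 61.1, 82.6, 171.6 and 278.8 CPM. The 22-month sections were at 47.9 and 46.6 CPM in the lowest bin and at 94.2 and 86.5 CPM in the highest. The second 14-month section thus lay near the 22-month sections in the spots poorest in uroplakin and near the first 14-month section in the richest. Jun followed a similar order, with 59.6 CPM in the lowest and 168.7 CPM in the highest bin of the second 14-month section and 193.2 and 176.3 CPM in the first. In muscle-rich spots Ier2 was at 47.7 and 41.9 CPM at 22 months against 209.9 and 63.7 CPM at 14 months, and did not pass (log2 difference -1.54, adjusted p = 0.862 by edgeR).

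**Figure D1:**
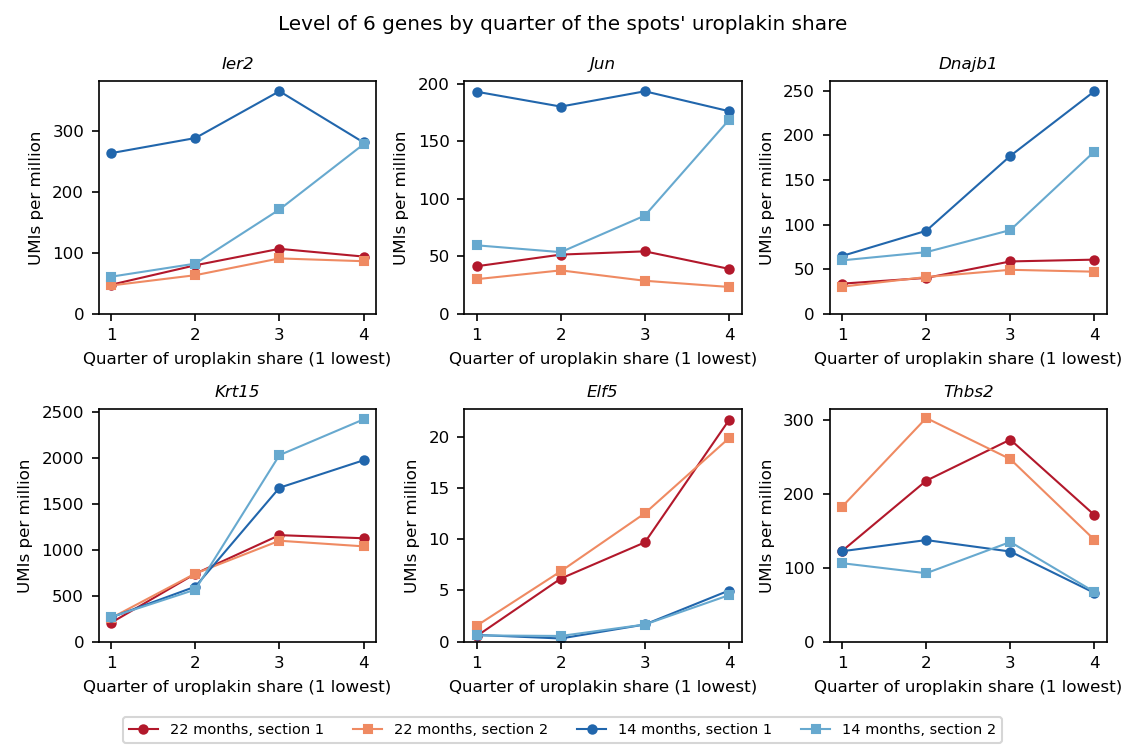
Level of 6 genes in CPM (vertical axes, from 0) in 4 equal bins of the spots of each section ordered by uroplakin share (horizontal axes, 1 lowest to 4 highest); each line is 1 section. Ier2 and Jun are high in all bins of the first 14-month section and climb with the uroplakin share in the second, while Elf5 climbs most steeply in the 22-month sections, to 21.6 and 19.9.

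Heat shock genes summed to less in both 22-month sections. The list of 14 chaperones and co-chaperones summed to 2996 and 3243 CPM at 22 months and to 4864 and 5514 CPM at 14 months in urothelium-rich spots. Of its 14 members, 3 fell by edgeR, against 0.323% of all tested genes, and none rose. All 14 lay below 0, against 50.7% of all tested genes, with a median log2 change of -0.68. DESeq2 called 9 lower, against 1.61% of all tested genes called. Dnajb1, which stimulates the Hsp70 chaperones, stood at 60.7 and 47.2 CPM against 249.3 and 181.8 CPM (log2 change -1.92, SE 0.197, adjusted p = 0.0339 by edgeR). Dnaja1, a co-chaperone of the same family, stood at 118.2 and 99.9 CPM against 201.2 and 250.3 CPM (log2 change -0.97, SE 0.120, adjusted p = 0.0155 by edgeR). The small heat shock protein gene Hspb1 stood at 321.5 and 359.0 CPM against 647.9 and 669.9 CPM (log2 change -0.87, SE 0.123, adjusted p = 0.0260 by edgeR). In each of the 3 genes the ages did not overlap. The most abundant members, the chaperones Hspa8 and Hsp90ab1, did not pass by edgeR, while DESeq2 called Hspa8 lower. Hspa8 was at 670.5 and 793.8 CPM against 1257 and 1481 CPM (adjusted p = 0.0580 by edgeR) and Hsp90ab1 at 943.0 and 1066 CPM against 1165 and 1274 CPM. Ahsa2, a relative of the Hsp90 co-activator Aha1 that is not in the list, fell by 1.10 on the log2 scale.

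Promoter windows of members are shown for GAANNTTC, a pair of the GAA repeats known as the heat shock element. In RefSeq promoters of GRCm38.p6, searched over 250 bases upstream of the start, 10 of the 14 genes had an entry, and 6 of the 10 held GAANNTTC, which reads alike on both strands: Dnaja1, Hspa1a, Hspa1b, Hspb1, Hspd1 and Hspe1. Among all 32851 promoters of that length, 6.69% held it. For each site given here a gene was counted if any of its promoters held the site, whereas the share is per promoter. Below are 60 bases from each of 3 of them with the match in capitals, Hspb1 at chr5:135887786-135887845 (plus strand), Dnaja1 at chr4:40722318-40722377 (plus strand) and Hspa1b at chr17:34959309-34959368 (minus strand). Hspa1b did not pass by edgeR, while DESeq2 called it lower. Its reads can be split with its near-identical copy Hspa1a, whose window has the same letters. Zfp36 is given at chr7:28379252-28379311 (minus strand) with its CArG box, the site of serum response factor, which was found on either strand in 1.47% of all promoters and in 2 of the 22 immediate-early genes with an entry.
Hspb1: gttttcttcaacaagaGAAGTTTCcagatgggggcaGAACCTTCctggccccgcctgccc
Dnaja1: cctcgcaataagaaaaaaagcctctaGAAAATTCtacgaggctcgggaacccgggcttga
Hspa1b: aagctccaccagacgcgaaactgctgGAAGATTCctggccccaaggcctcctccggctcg
Zfp36: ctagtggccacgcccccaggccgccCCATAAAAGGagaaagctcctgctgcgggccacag
The 2 matches of Hspb1 begin 117 and 97 bases before the start, that of Dnaja1 124 bases and that of Hspa1b 104 bases before it, and the CArG box of Zfp36 58 bases before it. A match describes the letters only and is not evidence of binding.

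**Figure D2:**
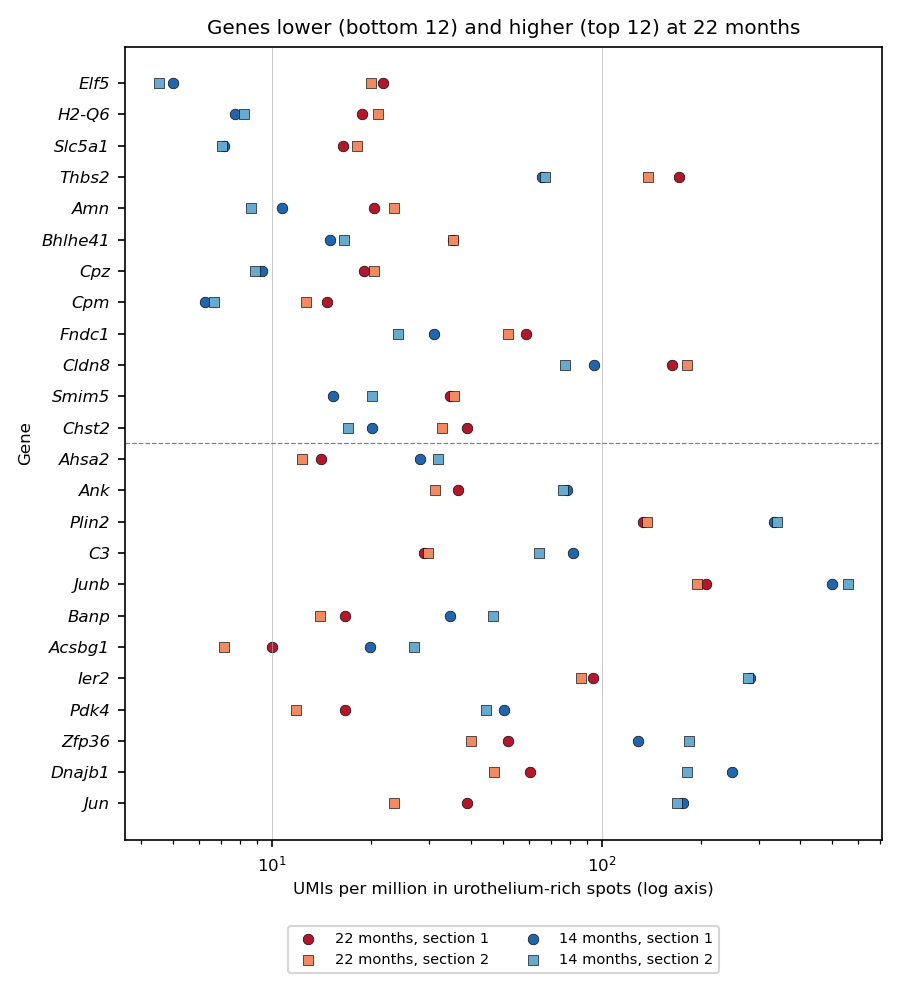
CPM in urothelium-rich spots (horizontal log axis) of the 12 genes with the largest fall (below the dashed line) and the 12 with the largest rise (above it) among those called at 22 months; each point is 1 section. For every gene both 22-month points lie on one side of both 14-month points, a condition by which these genes were selected.

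Single genes of lipid handling and fuel choice were called in both directions. Plin2, which coats lipid droplets, stood at 133.0 and 136.9 CPM at 22 months against 333.0 and 339.3 CPM at 14 months (log2 change -1.23, SE 0.0982, adjusted p = 0.00281 by edgeR). Pdk4, a kinase that shuts off pyruvate oxidation in fasting, stood at 16.6 and 11.8 CPM against 50.6 and 44.6 CPM (log2 change -1.65, SE 0.154, adjusted p = 0.00554 by edgeR). The sections of an age again lay closer to each other than to those of the other age. Falls were also called for the acyl-CoA synthetase gene Acsbg1 (log2 change -1.35), for Cpt2 of mitochondrial fatty acid import (-0.67) and for Fabp1 (-2.32). Elovl6, a fatty acid elongase, rose from 65.5 and 58.5 CPM to 96.4 and 92.0 CPM (log2 change 0.68, adjusted p = 0.0317 by edgeR). The adipocyte list summed to 2674 and 3951 CPM in these spots at 22 months against 1919 and 1336 CPM at 14 months. Most of it came from Fabp4 (2476 and 3770 CPM against 1694 and 1104 CPM). Of its 5 tested genes, Fabp4 was the 1 above 0 and 4 lay below 0, against 50.7% of all tested genes below 0. Neither edgeR nor DESeq2 called any of the 5, and 1 had an unadjusted p under 0.05 by edgeR. Fabp1, Cpt2, Elovl6 and other genes outside the naming rule were picked after their values had been seen. Of the 13 tested genes of the glucocorticoid and fasting list, Pdk4 was the 1 that edgeR called lower, against 0.323% of all tested genes, and 12 lay below 0, against 50.7%. DESeq2 called Angptl4, Cdkn1a and Pdk4 lower, against 1.61% of all tested genes called. The list summed to 1207 and 964.6 CPM at 22 months against 1599 and 1659 CPM. Mt1, a metallothionein and its most abundant member, was at 775.2 and 658.5 CPM against 735.3 and 962.6 CPM and overlapped.

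A pair of basal epithelial genes fell. Krt15, a keratin of basal cells, stood at 1125 and 1037 CPM in the urothelium-rich spots at 22 months and at 1974 and 2419 CPM at 14 months (log2 change -0.94, SE 0.144, adjusted p = 0.0332 by edgeR). Lamb3, a chain of the laminin that anchors basal cells, fell from 103.7 and 117.7 CPM to 72.0 and 61.6 CPM (log2 change -0.65, adjusted p = 0.0367 by edgeR). These were the 2 called of 11 tested members of the basal list, against 0.323% of all tested genes called lower. The list summed to 2809 and 2716 CPM against 4518 and 4958 CPM. Aqp3, a water and glycerol channel of the same cells, was at 630.1 and 574.5 CPM against 1084 and 890.2 CPM and did not pass by edgeR (adjusted p = 0.0868), while DESeq2 called it lower. The epithelial transcription factor gene Elf3 fell from 351.5 and 271.2 CPM to 139.6 and 145.3 CPM (log2 change -1.05, SE 0.145, adjusted p = 0.0332 by edgeR). It was the 1 gene called by edgeR of 16 tested in the urothelial list, against the same 0.323%. DESeq2 called Cldn4, Elf3 and Krt19 of that list lower, against 1.61% of all tested genes called. Outside the basal list, Ivl, encoding involucrin of the cornified envelope, fell from 935.3 and 765.3 CPM to 398.3 and 412.3 CPM (log2 change -0.99, adjusted p = 0.0260 by edgeR). Ivl and Sprr2f were the 2 called of 7 tested in the cornified and small proline-rich list, of which 3 lay above 0 and 4 below. The sums of that list, 5940 and 6338 CPM at 22 months against 5639 and 6113 CPM, overlapped. On the TMM scale they were 5933 and 6727 against 5549 and 5887 and did not overlap. In whole sections Sprr1a alone gave 3647 and 3642 of the list's 4023 and 4032 CPM at 22 months. At 14 months it gave 2842 and 3177 of 3583 and 3744 CPM, so the whole-section sums describe mostly that gene.

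Superficial genes did not pass by edgeR. Of 8 tested members other than the uroplakins that chose the spots, 6 lay above 0 and 2 below, against 50.7% of all tested genes below 0, and 5 were higher at an unadjusted p under 0.05, against 8.32%. By DESeq2, which called 1.61% of all tested genes, Krt20 and Snx31 were called higher. The list summed to 4648 and 5358 CPM at 22 months against 3972 and 3581 CPM at 14 months. Snx31, a sorting nexin, was at 541.9 and 619.6 CPM against 391.1 and 354.6 CPM (adjusted p = 0.0549 by edgeR). Psca, its most abundant member, was at 3293 and 4000 CPM against 2808 and 2590 CPM. Gsdmc2, a gasdermin gene, lay at 219.0 and 91.5 CPM against 227.9 and 191.9 CPM and overlapped between the ages (log2 difference -0.37, adjusted p = 0.806 by edgeR). The median uroplakin share of the spots moved the same way, and its part in these differences was not tested. With 1 uroplakin limit for all sections, the log2 difference was -0.86 for Krt15 (adjusted p = 0.0558 by edgeR) and -1.17 for Elf3 (adjusted p = 0.0227 by edgeR).

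Among the genes that rose, Elf5 changed most of those with at least 10 CPM. It stood at 21.6 and 19.9 CPM at 22 months and at 4.99 and 4.54 CPM at 14 months (log2 change 2.20, SE 0.175, adjusted p = 0.00281 by edgeR). In the bin of lowest uroplakin share it was at 0.541 and 1.56 CPM at 22 months against 0.652 and 0.602 CPM at 14 months. The ages overlapped in that bin, where all levels were low, and lay apart in every bin above it. In the second bin Elf5 was at 6.16 and 6.87 CPM against 0.303 and 0.550 CPM. In the third it was at 9.70 and 12.5 CPM against 1.67 and 1.67 CPM. Other epithelial genes that rose were Cldn8, a tight junction claudin (163.0 and 181.3 CPM against 94.6 and 77.5 CPM, log2 change 1.08), and Slc5a1, the sodium-glucose cotransporter (16.4 and 18.1 CPM against 7.14 and 7.03 CPM, log2 change 1.36). Amn, a partner of the endocytic receptor cubilin, rose by 1.26 and the carboxypeptidase gene Cpm by 1.16 on the log2 scale.

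Single matrix genes were called in both directions. Thbs2 stood at 171.2 and 137.7 CPM against 65.9 and 67.2 CPM (log2 change 1.29, SE 0.106, adjusted p = 0.00281 by edgeR), and Col6a3, a chain of type VI collagen, at 170.9 and 172.2 CPM against 96.8 and 95.9 CPM (log2 change 0.91, SE 0.0927, adjusted p = 0.00711 by edgeR). Each was the 1 gene called, of 25 tested in the matrix glycoprotein list and of 17 in the collagen list. The major fibrillar collagens Col1a1, at 865.2 and 813.7 CPM against 574.3 and 836.6 CPM, and Col1a2, at 957.4 and 865.6 CPM against 650.5 and 1118 CPM, overlapped between the ages. Fndc1 (log2 change 1.09), Cpz, a carboxypeptidase that binds Wnt proteins (1.19), and Smoc2, a matricellular protein gene (0.92), rose as well. Over whole sections the log2 difference was 0.78 for Fndc1 and 1.06 for Cpz but 0.14 for Smoc2. Adamtsl2, whose product binds fibrillin microfibrils, fell from 4.99 and 3.29 CPM to 0.704 and 0.319 CPM (log2 change -2.82, SE 0.474, adjusted p = 0.0454 by edgeR); it was higher in muscle-rich spots in all 4 sections. Thbs2 was higher in muscle-rich than in urothelium-rich spots in 3 of the 4 sections, and Fndc1, Cpz and Smoc2 in all 4. Beside these calls, the fibroblast list in urothelium-rich spots summed to 3899 and 2901 CPM at 22 months and to 4411 and 3634 CPM at 14 months, and the smooth muscle list to 5850 and 3274 CPM against 7039 and 2911 CPM.

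Further genes that rose included members of the clock, interferon and antioxidant lists. Bhlhe41, a repressor in the circadian clock, stood at 35.3 and 35.4 CPM against 14.97 and 16.5 CPM (log2 change 1.24, SE 0.120, adjusted p = 0.00554 by edgeR), the 1 call of 19 clock genes. The clock genes Dbp, at 183.8 and 110.3 CPM against 80.8 and 56.5 CPM, and Nfil3, at 4.74 and 5.10 CPM against 29.9 and 14.9 CPM, did not pass by edgeR. DESeq2 called 4 genes of the list, Bhlhe41, Dbp and Nr1d1 higher and Nfil3 lower. The RefSeq promoter of Bhlhe41 is shown because clock factors bind the E-box CACGTG. The E-box was found in 5 of the 16 clock genes with an entry, counted per gene, and in 6.02% of all promoters, counted per promoter. The 60 bases lie at chr6:145865541-145865600 (minus strand), with the E-box in capitals beginning 153 bases before the start.
Bhlhe41: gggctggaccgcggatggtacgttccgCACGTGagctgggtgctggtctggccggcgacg
Psmb8, a subunit of the immunoproteasome, stood at 62.9 and 73.6 CPM against 37.3 and 40.9 CPM (log2 change 0.88, SE 0.125, adjusted p = 0.0260 by edgeR), the 1 call of 20 tested interferon response genes. Of all tested genes, 0.338% were called higher. Of these 20, 19 lay above 0, while 50.7% of all tested genes lay below 0, and their sum was 618.1 and 617.3 CPM against 475.8 and 540.9 CPM. In the same spots the T or NK list stood at 33.2 and 78.7 CPM against 17.3 and 15.1 CPM, with 8 of 8 tested genes above 0. All 12 tested genes of the dendritic cell and class II list lay above 0, with sums of 937.4 and 950.9 CPM against 831.9 and 506.4 CPM. Their part in the interferon list's difference was not tested. Gclc, the catalytic subunit of glutathione synthesis, rose from 82.6 and 79.2 CPM to 131.1 and 127.8 CPM (log2 change 0.76), while the secreted peroxidase gene Gpx3 fell by 0.68. They were the 2 calls of 22 antioxidant genes by edgeR, and DESeq2 called 2 higher and 3 lower, against 1.61% of all tested genes called. The class I genes H2-Q2, H2-Q6 and H2-Q7 also rose (log2 changes 1.92, 1.40 and 0.93), but they are near-identical copies among which reads can be split, so their separate values are uncertain.

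The remaining genes named by size included Ank, which encodes a pyrophosphate transporter and fell from 78.2 and 76.4 CPM to 36.5 and 31.2 CPM (log2 change -1.11, adjusted p = 0.00489 by edgeR), and Banp, a nuclear matrix protein gene (log2 change -1.33). Chst2, a sulfotransferase gene, rose from 20.1 and 17.0 CPM to 39.1 and 32.9 CPM (log2 change 1.04, adjusted p = 0.0207 by edgeR), and the small membrane protein gene Smim5 by 1.07 on the log2 scale. Uchl1, a deubiquitinating enzyme abundant in neurons, rose from 1070 and 882.3 CPM to 1852 and 1583 CPM (log2 change 0.89, adjusted p = 0.0454 by edgeR), the 1 call of 3 tested neuron genes. It made up most of that list's sum of 1861 and 1588 CPM against 1076 and 891.3 CPM. Its mean level was 1347 CPM in urothelium-rich and 189.9 CPM in muscle-rich spots, higher in the former in all 4 sections.

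C3, the central complement component, fell from 82.0 and 64.6 CPM to 28.8 and 29.8 CPM in urothelium-rich spots (log2 change -1.24, SE 0.141, adjusted p = 0.0143 by edgeR). It was the 1 call of 14 tested complement genes by edgeR, while DESeq2 called C3 and Clu lower, against 1.61% of all tested genes called. The mean level of C3 was 51.3 CPM in urothelium-rich and 388.1 CPM in muscle-rich spots. With 1 uroplakin limit for all sections its log2 difference was -0.67 (adjusted p = 0.332 by edgeR). In the macrophage list, F13a1, a transglutaminase chain, fell by 1.08 on the log2 scale, whereas C1qb, at 80.0 and 97.5 CPM against 123.5 and 101.7 CPM, did not pass. Tgfb1 fell by 0.84, the 1 call of 20 TGF-beta genes.

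**Figure D3:**
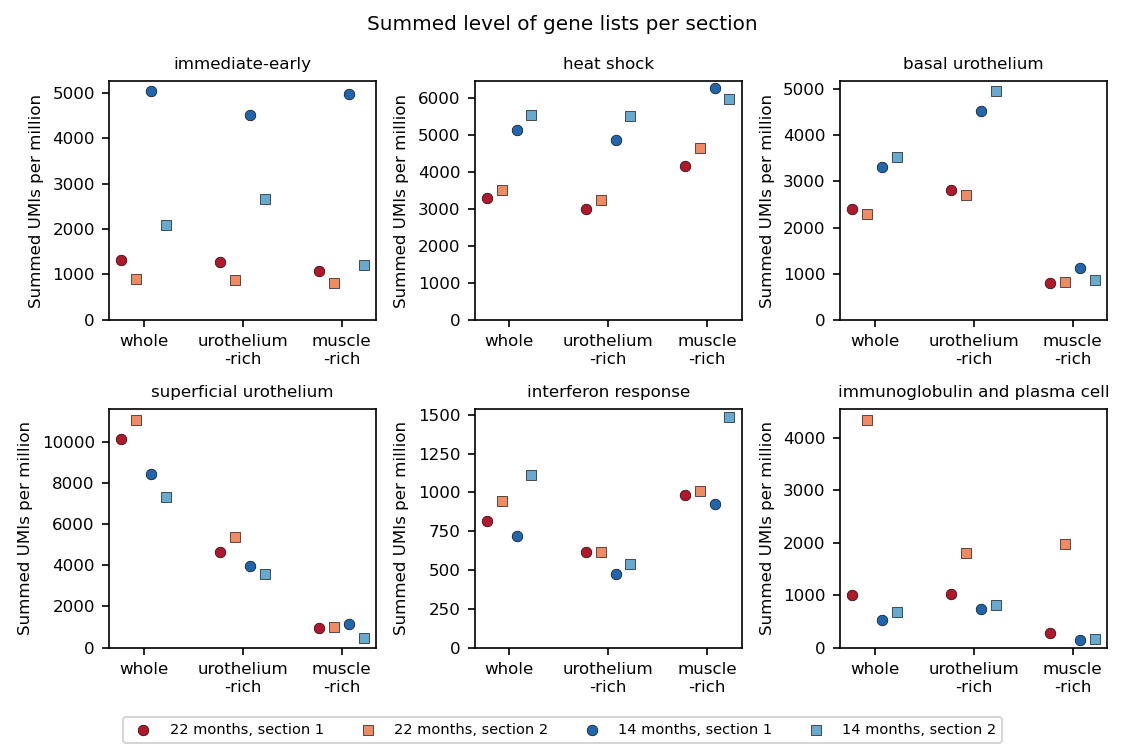
Summed level of 6 gene lists (vertical axes, CPM from 0) in whole sections, urothelium-rich and muscle-rich spots; each point is 1 section, and the genes that chose the spots are left out of both spot sets. Heat shock genes are lower in both 22-month sections in all 3 sets. The first 14-month section stands apart in immediate-early genes and the second 22-month section in the immunoglobulin and plasma cell list, which includes Sdc1.

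In muscle-rich spots, 0 of 11909 tested genes differed between the ages (0.0%) by edgeR, and 749 had an unadjusted p under 0.05 (6.29%), with 3.08% higher and 3.21% lower at 22 months. DESeq2 called 12 (0.101%). Leaving out 1 section gave between 26 and 73 calls: 73 and 26 without the first and second 22-month section, 47 and 35 without the first and second 14-month section. Smooth muscle genes other than the 4 that chose the spots summed to 68650 and 73670 CPM at 22 months and to 58420 and 51490 CPM at 14 months. Tagln, an actin-binding protein of smooth muscle, was at 19660 and 22320 CPM against 16480 and 13990 CPM, and Acta2, smooth muscle actin, at 16000 and 16450 CPM against 15600 and 12810 CPM. The share of the muscle genes that chose the spots moved the same way, and its part was not tested. P2rx1, the receptor through which ATP contracts the detrusor, was at 2243 and 1586 CPM against 1351 and 1576 CPM, with an adjusted p of 0.708 by edgeR.

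Other genes named by size in muscle-rich spots did not pass by edgeR, while DESeq2 called Cxcl12 among them lower. Adamtsl2 was at 7.24 and 9.03 CPM against 27.5 and 40.6 CPM. Igf1, encoding insulin-like growth factor 1, was at 15.2 and 19.2 CPM against 39.6 and 68.6 CPM. Both lay lower in both 22-month sections, as did Cxcl12, a chemokine of stromal cells, at 113.3 and 113.8 CPM against 177.7 and 354.4 CPM. Higher in both were Srebf1, a regulator of lipid synthesis, at 171.2 and 171.3 CPM against 92.9 and 86.3 CPM, and Hcrtr1, the receptor of orexin, at 38.9 and 34.8 CPM against 16.9 and 11.3 CPM. All 14 heat shock genes lay below 0 here too, against 48.9% of all tested genes, with a median log2 difference of -0.40; 6 were lower at an unadjusted p under 0.05, against 3.21% of all tested genes, and neither edgeR nor DESeq2 called any. Dnajb1 was at 31.0 and 30.9 CPM against 60.03 and 63.1 CPM.

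Whether the 2 spot sets differed in their age difference was tested with the section as a term. No gene of 13734 passed (0.0%), 765 had an unadjusted p under 0.05 (5.57%), and the lowest adjusted p was 0.0906, for Atf3; DESeq2 called 2. Of the 46 genes that rose in urothelium-rich spots, 40 were tested in muscle-rich spots, and all 40 lay above 0 there, 14 of them at an unadjusted p under 0.05. Of the 44 that fell, 41 were tested and 37 lay below 0, with 14 at an unadjusted p under 0.05. Of all genes tested in muscle-rich spots, 48.9% lay below 0. Both sums come from the same sections, so they are not independent, and how often the 2 sets shared a sign over all tested genes was not counted. Acsbg1 went opposite ways, with a log2 difference of -1.35 in urothelium-rich and 0.80 in muscle-rich spots (difference -2.13, SE 0.347, adjusted p = 0.257 by edgeR). Col6a3 was at 0.91 and 0.11 on the log2 scale (difference 0.82, adjusted p = 0.509 by edgeR), and Dnajb1 at -1.92 and -0.90.

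**Figure D4:**
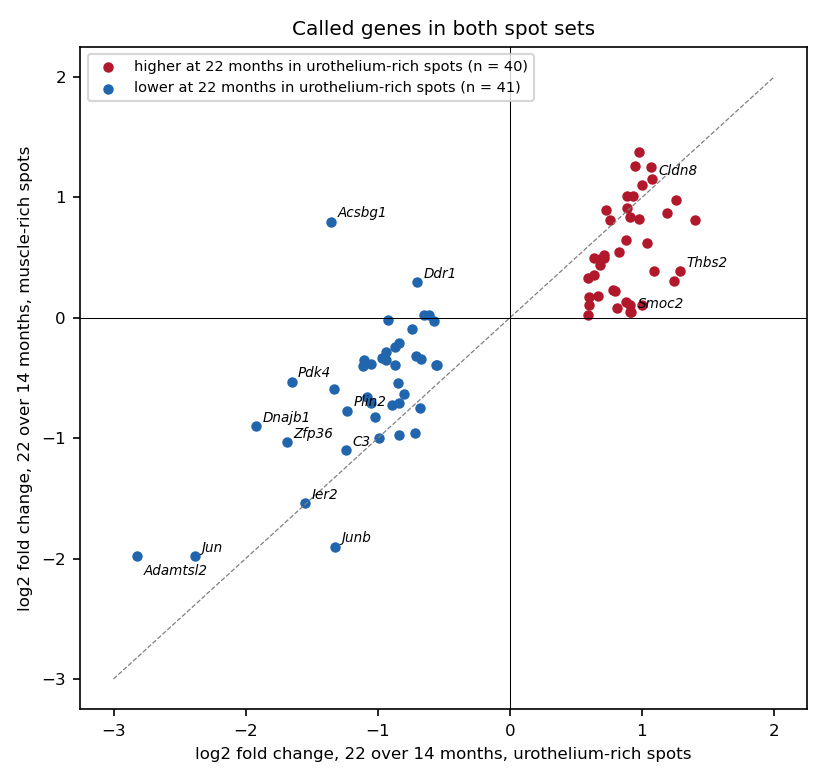
Log2 fold change of 22 over 14 months in muscle-rich spots (vertical axis) against that in urothelium-rich spots (horizontal axis) for the genes called in the latter and tested in both; the dashed line marks equal changes. All 40 genes that rose lie above 0 on both axes, 37 of the 41 that fell lie below 0 on both, and Acsbg1 is at -1.35 and 0.80.

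Immunoglobulin genes were highest in the second 22-month section. By edgeR none was called in any set; DESeq2 called 5 higher in whole sections (2.78% of all tested genes were called there), Ighg1 among them, none in muscle-rich spots, and in urothelium-rich spots 5 higher (Ighm, Igkc, Iglc2, Jchain and Mzb1) and Sdc1 lower. In whole sections the list of immunoglobulin and plasma cell genes summed to 998.3 and 4342 CPM at 22 months and to 520.4 and 672.9 CPM at 14 months. Ighm, the heavy chain of IgM, was at 256.6 and 1734 CPM against 15.2 and 85.4 CPM, and the light chain gene Igkc at 246.5 and 1362 CPM against 7.19 and 63.0 CPM. Both were higher in both 22-month sections and by far highest in the second. Ighg1, a heavy chain of IgG, was at 9.15 and 119.8 CPM, with no UMI in the 14-month sections. Of 14 tested members 13 lay above 0, against 49.9% of all tested genes below 0, 2 were higher at an unadjusted p under 0.05, against 8.76%, and none passed (Ighm adjusted p = 0.403 by edgeR). Sdc1, which epithelial cells also make, was the 1 below 0, at 398.8 and 392.7 CPM against 493.8 and 499.7 CPM. It made up most of the list's sum in each 14-month section, so these sums understate how far the immunoglobulin genes themselves lay apart.

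Part of the UMIs of this list, which includes Sdc1, lay in few spots. The top 5% of spots by list UMIs held 50.1% and 60.8% of them at 22 months, against 32.9% and 39.2% at 14 months. Sdc1 gave 10851 of the 11436 list UMIs in the first 14-month section and 11492 of 15473 in the second. At 22 months it gave 12771 of 31965 and 8904 of 98470. The shares at 14 months thus describe mostly Sdc1, and the ages cannot be compared by them for immunoglobulin alone. Outside those spots the list, Sdc1 included, stood at 565.5 and 1827 CPM at 22 months against 429.0 and 490.4 CPM at 14 months. The level of the immunoglobulin genes alone outside those spots was not computed. The order of the sections was the same with and without the top spots. The T or NK cell list was at 44.7 and 118.6 CPM against 32.2 and 26.3 CPM and the B cell list at 7.84 and 63.2 CPM against 5.14 and 6.52 CPM, with none of 14 and none of 6 tested genes called by edgeR, while DESeq2 called 2 T or NK genes and no B cell gene, against 2.78% of all tested genes. At an unadjusted p under 0.05, 5 T or NK genes and 2 B cell genes were higher, against 8.76% of all tested genes, and the second 22-month section was again highest. Ccl5, a T cell chemokine, was at 14.5 and 50.1 CPM against 10.97 and 7.52 CPM.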

How the data were processed

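Counts were summed per gene over spots of each of 4 sections. The deposited tables hold UMI counts per spot and gene, not normalized; per the submitters' processing notes, the build was mm10 and the tools named include Space Ranger and Cell Ranger, with no versions or roles given. Spots with fewer than 500 UMIs were left out. Sums were compared with edgeR 4.0.16 (quasi-likelihood, robust, TMM, filterByExpr, two-sided, Benjamini-Hochberg), DESeq2 being an alternative; SE was derived from the fitted change and its F. CPM are UMIs per 1000000 UMIs of the spots, without TMM. The genes that chose a spot set were left out of its calls. An exact permutation test of 2 against 2 sections cannot go below 0.333, so lists carry no p. Text names up to 12 genes per direction by fitted change with at least 10 CPM and no overlap, and per list the 2 extreme and 2 most abundant members; other names were picked after their values were seen. The comparison, the spot sets and the lists were chosen with earlier results of these data known. Fits were tested on simulated data. Spot positions were not used here.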

Additional observations from a re-analysis of the deposited data

How the results depend on the processing

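The count of genes called in whole sections, 0 by edgeR, was 66 with library size alone, 286 when low-count genes stayed in, 417 with DESeq2, and 1 to 256 when a section was left out. It stayed at 0 with RLE, robust off, other UMI limits, thinned spots or the listed genes left out. In urothelium-rich spots, 90 genes became 219 with DESeq2, 766 with low-count genes kept in, 31 with robust off, 42 with spots thinned to 2000 UMIs, 194 in the top 10% of spots and 43 with 1 uroplakin limit, with 4 to 189 when a section was left out; the other alternatives gave 82 to 107. In muscle-rich spots, 0 became 12 with DESeq2, 67 with low-count genes kept in, 3 in the top 10% and 26 to 73 when a section was left out. For the difference between spot sets, 0 became 2 with DESeq2, 24 with low-count genes kept in, 19 in the top 10%, 6 with 1 limit and 0 to 24 when a section was left out. The causes of these changes were not tested; with a section left out, the lone section of an age is assumed to vary like the other. The 141 list levels showed groups without overlap in 82 cases, in 74 with TMM scaling and in 75 with thinned spots; single genes did so in 50.8%, 50.9% and 37.1% of those tested in whole sections, urothelium-rich and muscle-rich spots. No paired analysis was possible because the section labels carry no replicate numbers shared between the ages.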

Other observations

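Ribosomal protein genes took a larger share of UMIs in the 22-month sections. The 84 cytoplasmic ribosomal protein genes summed to 212600 and 241000 CPM in urothelium-rich spots at 22 months and to 184700 and 195900 CPM at 14 months. Of 81 tested, 80 lay above 0, whereas 50.7% of all tested genes lay below 0. None was called by edgeR, while 29 were higher at an unadjusted p under 0.05, against 8.32% of all tested genes. In muscle-rich spots the sums overlapped, at 136300 and 128400 CPM against 130500 and 132600 CPM. The 13 mitochondrially encoded genes stood at 34250 and 34800 CPM against 31150 and 24870 CPM in urothelium-rich spots, and at 49060 and 40620 CPM against 45960 and 46480 CPM in muscle-rich spots.

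Several clock genes were higher in the first than in the second 22-month section. In urothelium-rich spots Per1 was at 43.1 and 16.9 CPM at 22 months and at 110.2 and 40.7 CPM at 14 months. Per2 was at 31.9 and 10.4 CPM against 25.2 and 21.9 CPM, and Ciart at 7.24 and 2.45 CPM against 3.43 and 1.60 CPM. Bglap2, an osteocalcin gene, was at 33.7 and 42.1 CPM in whole sections at 22 months and at 10.6 and 4.65 CPM at 14 months, with an adjusted p of 0.187 by edgeR.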
